A study of Homo sapiens with 4 samples.

Results

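Transcripts of the proteasome were followed in NGP cells, an established human neuroblastoma line with amplified MYCN, by droplet single-cell RNA sequencing on the ddSeq device, in which a 3′ kit counts the ends of polyadenylated transcripts. All cells had been synchronised by serum starvation, and they were then kept for 24 h with Nutlin-3, an inhibitor of the MDM2-p53 interaction, or with ethanol as the control. Each treatment had 2 libraries, with ERCC spike-in RNA diluted 1000-fold in one and 10000-fold in the other. The members are the genes whose symbol is PSM, a letter from A to G and a number, without pseudogenes. The annotation holds 48 such genes, and 44 of them had a row among the 25693 human genes of the table.

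The proteasome is the protease that degrades proteins tagged with ubiquitin, p53 among them, to which MDM2 attaches the tag. Its barrel-shaped 20S core is built of outer alpha rings and inner beta rings, and the proteolytic sites face the inside of the barrel. A 19S cap binds the tagged protein, removes the ubiquitin, unfolds the chain with a ring of ATPases and feeds it into the core. Other proteins open the core in place of the cap, inhibit it, or help to put core and cap together.

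The table has 250 columns for each treatment, named by 12 bases and a word for treated or untreated. No name tells the libraries of a treatment apart, so each treatment was 1 pool without a replicate, and no test between treatments could be made. The intervals below are 95% intervals for counting error only. The ethanol pool held 1342134 human counts and the Nutlin-3 pool 1301232. In each pool 113 large columns lay above 4000 counts and 137 small columns below. A column need not be a cell. On this device the read opens with a short spacer and the first of several barcode blocks, and a fixed linker that starts with TAGCCA comes next. The name ended in the first letters of that linker in 112 of the 113 large columns of each pool. It did so in 122 (ethanol) and 120 (Nutlin-3) of the 137 small ones. Such a name leaves room for 1 block only. A match could be as short as 1 letter, which can occur without a linker. All 6 letters were there in 16 large columns of each pool and in 8 (ethanol) and 4 (Nutlin-3) small ones. Of the 250 names, 219 occurred in both pools, all large ones among them, and no such pair of columns held identical values. The totals of same-named columns followed each other closely between pools, with Pearson's r = 0.991 for the log2 totals of these 219 pairs, which share a name and so the first barcode bases. What this means for the independence of the pools was not tested. Shares of columns below are therefore not shares of cells, and whether a count is a molecule is not known. As a check of the labels, the p53 targets CDKN1A and MDM2 had 70 and 315 counts under ethanol and 188 and 504 under Nutlin-3, with log2 fold changes of 1.46 (1.07 to 1.89) and 0.72 (0.52 to 0.93). The 9 genes fixed as marks of adrenergic neuroblastoma had 104 to 1140 counts under ethanol and 131 to 877 under Nutlin-3. Among them MYCN had a log2 fold change of -0.33 (-0.46 to -0.20) and CHGA one of 0.49 (0.30 to 0.68), both of larger size than that of any filtered proteasome gene. Of the 11 marks of other cell types, 5 had no row, PTPRC, CD3E, PECAM1 and KRT5 among them. The other 6 summed to 82 counts under ethanol and 127 under Nutlin-3, most of them from LYZ (24 and 49) and COL1A1 (29 and 47), and their part in the results was not tested.

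Together the 44 proteasome genes had 7547 counts under ethanol, 0.562% of the human counts (exact binomial interval 0.550 to 0.575), and 6878 under Nutlin-3, 0.529% (0.516 to 0.541). The log2 fold change of this sum, Nutlin-3 over ethanol, was -0.09 (-0.14 to -0.04). It was -0.08 (-0.13 to -0.04) in the columns whose name occurred in both pools and -0.37 (-0.65 to -0.09) in the 31 columns of each pool with a name of their own, which were all small and held 232 and 209 of the members' counts. Of the 43 members that passed the filter on low counts, 35 had a log2 fold change below 0 and 8 above, where 50.3% of the 14830 genes that passed were below 0. The median was -0.08 over the members and -0.00 over those genes. In the large columns alone 25 of the 43 were below 0 and 18 above. With ERCC counts as library size the median of all genes moved to -0.47 and that of the members to -0.55. Then 43 members were below 0 and 0 above, so signs here are relative to the bulk of the genes. The pools held 2989 (ethanol) and 4007 (Nutlin-3) ERCC counts. These totals depend on how many columns came from the library diluted 1000-fold and how many from that diluted 10000-fold. That mix is not known, so this scaling cannot show a change in the RNA content of the cells. Sums over columns that need not be cells do not tell fewer cells with a transcript from fewer transcripts per cell.

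Single members mostly had intervals that held 0. PSMB2, a beta subunit of the core, was the 1 member of 43 whose interval lay below 0, and 0 members had an interval above 0. Over all genes that passed the filter, 3.57% had an interval below 0 and 4.55% above, so the members' counts of 1 and 0 stand no higher than the background. The point estimates ran from -0.29 for PSMD2 to 0.13 for PSME1.

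**Figure D1:**
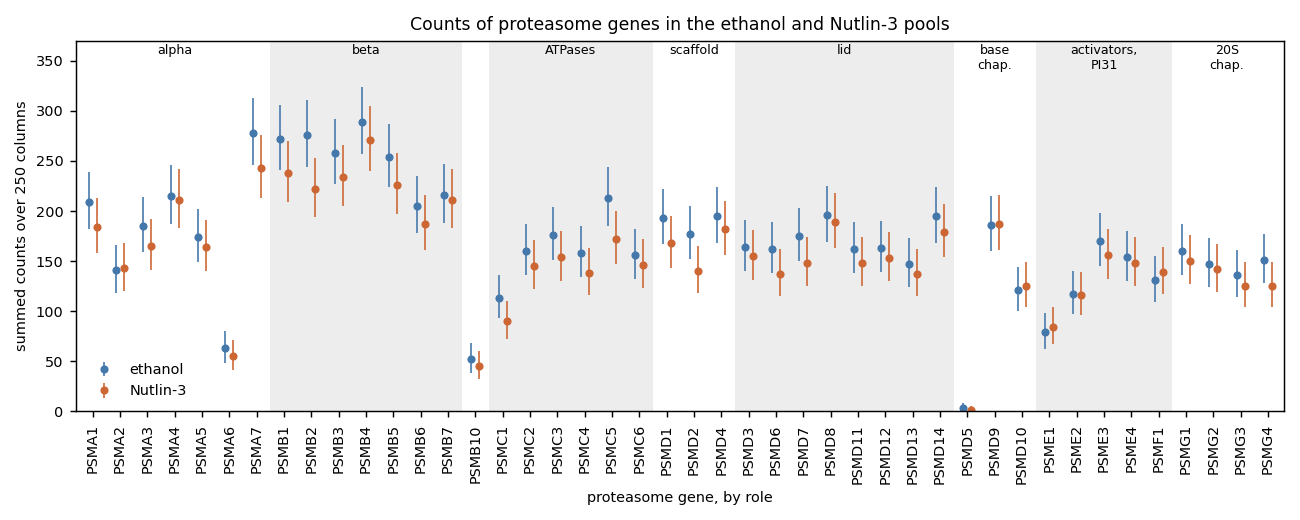
Summed counts (vertical axis) of the 44 proteasome genes, ordered by role, in the ethanol and Nutlin-3 pools of 250 columns each; points are sums and bars 95% Poisson intervals. PSMB4 is highest, with 289 and 271 counts, while PSMA6, PSMB10 and PSMD5 lie below all other members in both pools.

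Promoters were examined as a feature that the choice of members did not use. RefSeq windows on GRCh38.p14, from 250 bases before to 50 after the start of a gene, were at hand for 38 of the 44 members, in 46 windows of 300 bases. There was none for PSMA7, PSMB1, PSMB6, PSMB7, PSMD4 and PSMG3. Motifs were searched on both strands, overlaps included. TGACNNNGC is the core of the antioxidant response element, bound by NFE2L1 and NFE2L2, of which NFE2L1 is the known activator of proteasome genes. It was in 30.4% of the members' windows and in 13.3% of all 35116 windows of that length. CCGGAAGT, a motif of ETS factors, was in 19.6% and 4.14%. CCAAT, the motif of NF-Y, was in 39.1% and 34.6%. CACGTG, the E-box of MYC proteins, was in 6.52% and 7.26%. TTTGAA, the cell cycle motif CHR, was in 13.0% and 15.2%.

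Windows are shown for PSMB4, the member with the most counts, for PSMB2, whose interval excluded 0, for PSME1, with the highest fold change, and for PSMD12, the first by name of the 2 members with the response element and the ETS motif in 1 window. They lie at chr1:151399323-151399622 on the plus strand, chr1:35641477-35641776 on the minus strand, chr14:24135944-24136243 on the plus strand and chr17:67366528-67366827 on the minus strand. Each is written 5′ to 3′ along its gene, with the matches in capitals.
PSMB4: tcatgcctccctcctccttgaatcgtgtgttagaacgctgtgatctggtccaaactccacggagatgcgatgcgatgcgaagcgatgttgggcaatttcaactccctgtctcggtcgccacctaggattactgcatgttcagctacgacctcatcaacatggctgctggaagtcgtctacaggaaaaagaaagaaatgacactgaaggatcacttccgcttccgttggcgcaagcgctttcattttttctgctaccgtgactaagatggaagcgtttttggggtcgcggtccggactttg
PSMB2: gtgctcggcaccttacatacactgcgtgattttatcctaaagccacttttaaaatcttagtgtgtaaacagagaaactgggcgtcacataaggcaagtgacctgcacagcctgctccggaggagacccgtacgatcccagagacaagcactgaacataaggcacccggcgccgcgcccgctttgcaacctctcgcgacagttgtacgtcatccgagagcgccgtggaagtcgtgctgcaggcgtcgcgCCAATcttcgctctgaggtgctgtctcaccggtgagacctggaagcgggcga
PSME1: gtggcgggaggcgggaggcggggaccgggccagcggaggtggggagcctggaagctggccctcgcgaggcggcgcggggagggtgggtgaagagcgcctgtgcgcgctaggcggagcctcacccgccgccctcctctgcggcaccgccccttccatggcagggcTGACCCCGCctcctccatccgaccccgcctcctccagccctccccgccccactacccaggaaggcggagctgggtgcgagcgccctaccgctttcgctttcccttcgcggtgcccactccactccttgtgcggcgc
PSMD12: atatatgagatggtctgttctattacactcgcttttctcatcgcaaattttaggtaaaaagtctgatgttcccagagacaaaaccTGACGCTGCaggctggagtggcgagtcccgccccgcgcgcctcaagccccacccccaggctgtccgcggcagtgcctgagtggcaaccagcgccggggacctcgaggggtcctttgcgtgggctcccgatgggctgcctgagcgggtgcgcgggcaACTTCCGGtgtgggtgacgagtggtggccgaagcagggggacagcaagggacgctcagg
The PSMB4 window held none of the motifs. PSMB2 had a CCAAT match that spans the start, at bases 249 to 253 of the window. In PSME1 the response element lay at bases 165 to 173. In PSMD12 it lay at bases 86 to 94, and the ETS motif, on the reverse strand, at bases 242 to 249. The 13 filtered members with the response element had a median log2 fold change of -0.04 and the 24 without it one of -0.11. For CHR these medians were -0.15 over 5 members and -0.05 over 32. They were -0.09 over 18 and -0.06 over 19 members for CCAAT, and -0.06 over 9 and -0.09 over 28 for the ETS motif. For the E-box they were -0.08 over 3 and -0.08 over 34. Differences between members with and without a motif were not tested.

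By role, the sum of the 14 standard core genes was 3035 counts under ethanol and 2754 under Nutlin-3. Its log2 fold change was -0.09 (-0.17 to -0.02), against -0.06 (-0.14 to 0.03) for large columns alone. The corresponding values below for ATPases, lid and assembly factors have intervals that overlap that of the core, and differences between roles were not tested.

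The alpha ring forms the ends of the core and its gate. PSMA7 had 278 counts under ethanol and 243 under Nutlin-3, the highest of the ring. PSMA4 had 215 and 211, PSMA1 209 and 184, PSMA3 185 and 165, and PSMA5 174 and 164. These 5 genes were seen in nearly every large column. PSMA2 was lower, with 141 and 143. It overlaps MRPL32 on the other strand (185 and 182 counts). In all, 23 members overlap another gene of the table, 21 on the opposite strand and 6 on the same, and since the use of strand in the counting is not stated, such reads cannot be told apart. PSMA6 (ENSG00000100902, chromosome 14, 35278633 to 35317493 in GRCh38, GENCODE release 29) was the exception, with 63 counts (Poisson interval 48.4 to 80.6) under ethanol and 55 (41.4 to 71.6) under Nutlin-3. Its interval lay below that of each other alpha gene in both pools. Rows of 3 PSMA6 pseudogenes held more, 105 counts under ethanol and 75 under Nutlin-3, and how the authors' counting shared reads between them and the gene is not known. The median log2 fold change of the 7 alpha genes was -0.12, with 5 below 0 and 2 above. Over large columns alone the median was 0.01. PSMA8, a subunit of male germ cells, had no row.

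The standard beta ring carried the highest counts of the complex. PSMB4, a structural subunit (ENSG00000159377, chromosome 1, 151399534 to 151401944), had 289 counts under ethanol (257 to 324) and 271 under Nutlin-3 (240 to 305), and ranked 176th of all 25693 genes by mean CPM (counts scaled to a common library size). The structural subunits PSMB1 and PSMB3 had 272 and 238 counts and 258 and 234. Intervals of PSMB4, PSMA7, PSMB2, PSMB1 and PSMB3 overlapped within each pool, so their order is not resolved by counting.

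Of the catalytic subunits, PSMB5, with the chymotrypsin-like site that bortezomib blocks, had 254 counts under ethanol and 226 under Nutlin-3. PSMB7, with the trypsin-like site, had 216 and 211, and PSMB6, with the caspase-like site, had 205 and 187. Their log2 fold changes were -0.12 (-0.39 to 0.14), 0.01 (-0.27 to 0.29) and -0.09 (-0.38 to 0.21), and each pool's intervals overlapped. PSMB2 (ENSG00000126067, chromosome 1, 35599544 to 35641844) had 276 counts under ethanol (244 to 311) and 222 under Nutlin-3 (194 to 253), which gave a log2 fold change of -0.27 (-0.53 to -0.01). The Poisson intervals of the 2 sums overlapped. Its estimate was alike in the large columns, at -0.25 (-0.56 to 0.07), and in the small, at -0.24 (-0.72 to 0.24), but with fewer counts each interval held 0. Over the 7 genes the median was -0.09, with 6 below 0 and 1 above.

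Immunoproteasome subunits take the place of the standard catalytic ones after interferon. PSMB10, which replaces PSMB7, had 52 counts under ethanol (38.8 to 68.2) and 45 under Nutlin-3 (32.8 to 60.2), against 216 and 211 for PSMB7. The gene AC040162.1 overlaps it on the same strand and had 26 and 12 counts. PSMB8 and PSMB9, which replace PSMB5 and PSMB6, and PSMB11 of the thymus had no row and were not analysed here.

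The 6 ATPases of the cap were below 0 in all 6 cases, and their summed count differed beyond counting error over all columns. The sum was 976 under ethanol and 845 under Nutlin-3, a log2 fold change of -0.16 (-0.30 to -0.03), with a median over genes of -0.15 and 0 single intervals off 0. For large columns alone the sum was at -0.10 (-0.25 to 0.04). PSMC5 had the most counts, 213 under ethanol and 172 under Nutlin-3, a log2 fold change of -0.26 (-0.56 to 0.03). PSMC3 had 176 and 154, PSMC2 160 and 145, PSMC4 158 and 138, and PSMC6 156 and 146. PSMC1 was the lowest, with 113 counts under ethanol (93.1 to 136) and 90 under Nutlin-3 (72.4 to 111), which gave a value of -0.28 (-0.70 to 0.13). It has 13 annotated pseudogenes, 9 of them with rows that held 68 counts under ethanol and 48 under Nutlin-3. With these added to the gene, an alternative chosen after the data were seen, its value was -0.34 (-0.68 to -0.02). PSMC1 also differed between classes of columns, with 108 and 79 counts in the large columns and 5 and 11 in the small. Its ratio of variance to mean over large columns was 0.18 under ethanol and 0.38 under Nutlin-3, below the ratio near 1 that the intervals assume, so for large columns they do not describe the spread seen over columns. Columns are no replicates, and the difference was not tested.

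The scaffold of the cap and its ubiquitin receptor were also below 0. PSMD2, a scaffold on which other factors dock, had 177 counts under ethanol and 140 under Nutlin-3 and the lowest log2 fold change of the filtered members, -0.29 (-0.62 to 0.04). For PSMD1, the second scaffold, the counts were 193 and 168, a value of -0.15 (-0.46 to 0.15). PSMD4, the ubiquitin receptor, had 195 and 182, a value of -0.05 (-0.35 to 0.25). None of the 3 intervals lay off 0.

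The lid removes ubiquitin from the bound protein. Its 8 genes lay in a narrow range, from 147 to 196 counts under ethanol and from 137 to 189 under Nutlin-3, in contrast to the alpha ring. PSMD8 was the highest of them in both pools and PSMD13 the lowest under ethanol. PSMD14, the deubiquitinase itself, had 195 counts under ethanol and 179 under Nutlin-3, a log2 fold change of -0.08 (-0.38 to 0.22). PSMD7, its partner, had 175 and 148, and PSMD6 had 162 and 137, with values of -0.19 (-0.52 to 0.13) and -0.19 (-0.53 to 0.14). PSMD12 had 163 and 153 counts, PSMD3 164 and 155, and PSMD11 162 and 148. All 8 point estimates were below 0, with a median of -0.07, and the summed value was -0.08 (-0.20 to 0.03). In the large columns alone that sum was at -0.01 (-0.13 to 0.12).

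The assembly factors put core and cap together without staying in the finished complex. Of the chaperones of the cap's base, PSMD9 had 186 counts under ethanol and 187 under Nutlin-3, and PSMD10, known as gankyrin and as a partner of MDM2, had 121 and 125. Their log2 fold changes were 0.05 (-0.25 to 0.35) and 0.09 (-0.28 to 0.47). PSMD9 overlaps WDR66 on the same strand, a gene with 85 and 106 counts. PSMD5, the third chaperone (ENSG00000095261, chromosome 9, 120815496 to 120842984), was at the limit of detection, with 3 counts under ethanol and 1 under Nutlin-3, and did not pass the filter. No fold is given for it, since 0 counts would allow up to 3.

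The chaperones of the core had 147 to 160 counts under ethanol for PSMG1, PSMG2 and PSMG4, and 136 for PSMG3. Under Nutlin-3 the counts were 150 for PSMG1, 142 for PSMG2, and 125 for both PSMG3 and PSMG4. All 4 point estimates were below 0, from -0.23 (-0.58 to 0.13) for PSMG4 to -0.00 for PSMG2. PSMG4 overlaps TUBB2B on the other strand, a gene with 204 and 202 counts. Over both kinds of assembly factor the sum was 904 under ethanol and 855 under Nutlin-3, a value of -0.03 (-0.17 to 0.10).

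The alternative activators and the inhibitor showed no difference beyond counting error. PSME1, a subunit of the interferon-inducible activator, had 79 counts under ethanol (62.5 to 98.5) and 84 under Nutlin-3 (67.0 to 104), and its partner PSME2 had 117 and 116. Both were among the least abundant members. PSME3, a nuclear activator reported to aid the turnover of p53 by MDM2, had 170 and 156 counts, a log2 fold change of -0.08 (-0.40 to 0.24). PSME4, an activator linked to chromatin, had 154 and 148. PSMF1, which encodes the inhibitor PI31, had 131 and 139, a value of 0.13 (-0.22 to 0.49). The sum of the 5 genes had a value of 0.03 (-0.13 to 0.19).

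**Figure D2:**
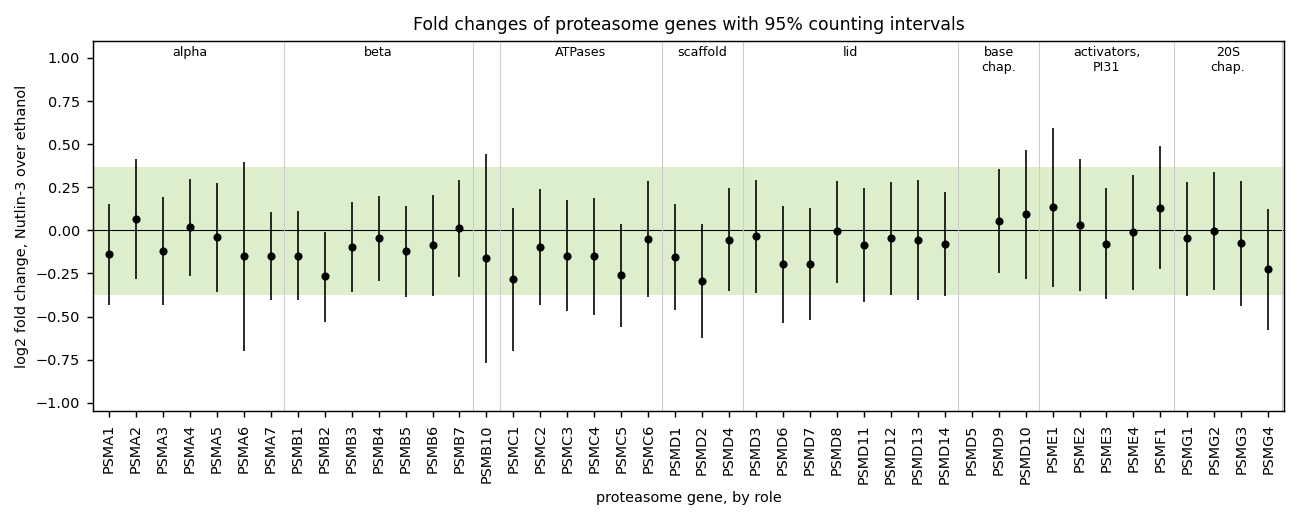
Log2 fold change, Nutlin-3 over ethanol, of the 43 filtered proteasome genes by role; points are estimates, bars 95% counting intervals, and the green band holds the central 95% of the 8844 genes whose mean reached 50 CPM. All points lie inside the band, and the bar of PSMB2 alone stays below 0; PSMD5 has no point.

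How the counts were spread over columns limits what these fold changes can show. In the large columns 75.4% of the members' values under ethanol were exactly 1, 20.3% were 2 or more and 4.28% were 0. Under Nutlin-3 these shares were 77.2%, 17.2% and 5.60%. Over all filtered genes 57.1% of the ethanol values in large columns were 1 and 37.7% were 0. PSMD13 had 1 count in 103 of 113 large columns under ethanol and in 100 under Nutlin-3, with a ratio of variance to mean of 0.075 and 0.12, where a Poisson count has a ratio near 1.

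Counts that sit at 1 in almost every large column carry little information on the level of a gene. PSMB4 had 2 or more counts in 59 large columns under ethanol and 55 under Nutlin-3. PSMA6 had 0 in 53 and 61, PSMB10 in 66 and 71, and PSME1 in 40 in each pool. PSMC1 had 0 counts in 12 large columns under ethanol and in 37 under Nutlin-3, the widest gap between pools among the members in that number. In the small columns 72.6% of the members' values were 0 under ethanol and 78.4% under Nutlin-3, and under 1% were 2 or more, at 0.543% and 0.560%.

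**Figure D3:**
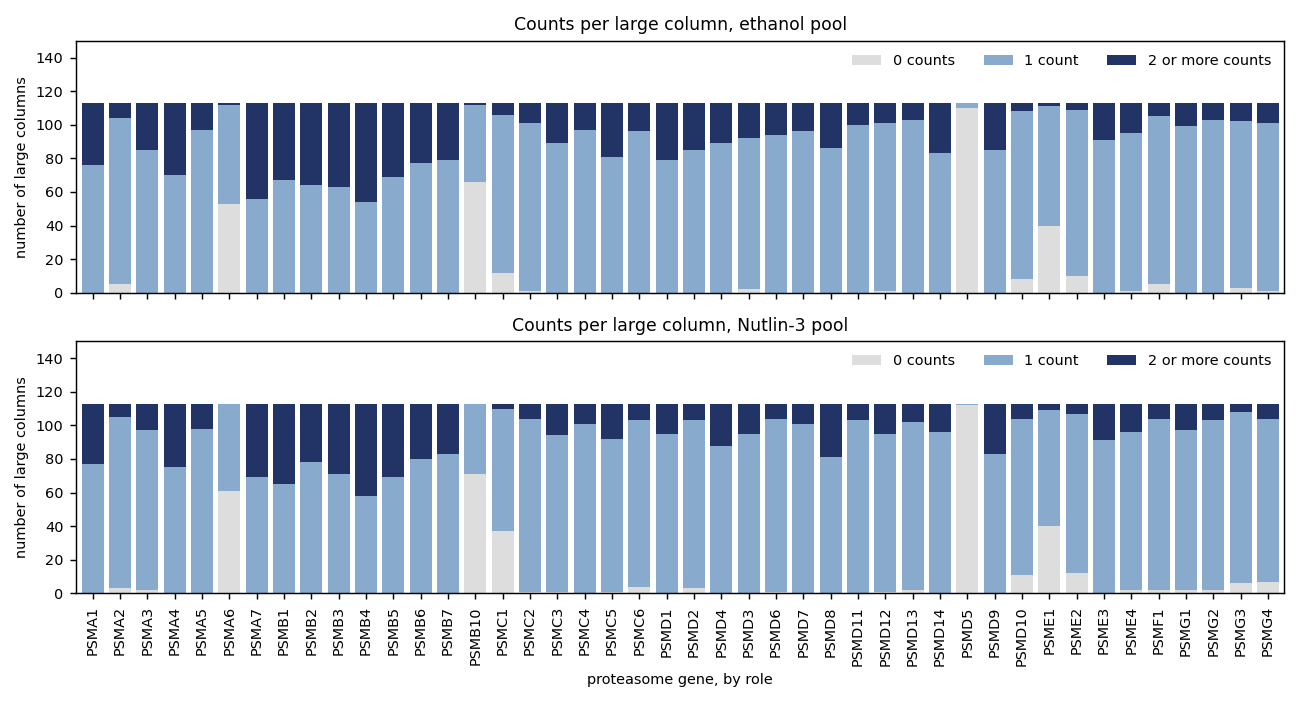
Number of large columns, of 113 in each pool, in which each proteasome gene had 0, 1 or 2 or more counts. A single count fills most columns for most genes, and the longest stretches without a count belong to PSMD5, PSMB10, PSMA6 and PSME1, and under Nutlin-3 to PSMC1 with 37 columns.

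Levels of the roles stood further apart in the small columns. They are compared as mean counts per gene, with no division by length, since the kit reads 3′ ends. In the large ethanol columns a standard core gene had 158.5 counts on average and a lid gene 134, a ratio of 1.18. In the small ethanol columns these were 58.3 and 36.1, a ratio of 1.61. The core's mean joins rings of unlike level. Alpha genes, PSMA6 included, averaged 137 counts in the large ethanol columns, near the lid, and beta genes 180. In the small ethanol columns the alpha and beta means were 43.3 and 73.3. Against ATPase genes the core's ratio was 1.20 in the large and 1.88 in the small columns, and against assembly factors 1.46 and 2.87. The assembly factors' mean includes PSMD5, with 3 counts in the large ethanol columns and 0 in the small columns of either pool, which raises that ratio. Median counts per gene were 159 for the core and 124 for assembly factors in the large ethanol columns, and 58 and 22 in the small. Under Nutlin-3 the order was the same, with ratios in the small columns of 1.89 for lid, 2.24 for ATPases and 2.78 for assembly factors. The genes of a role are not replicates, so these ratios describe the pools.

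The members' difference between treatments was also wider in the small columns, where counts were lower. The members' sum there was 1647 under ethanol and 1309 under Nutlin-3, a log2 fold change of -0.20 (-0.30 to -0.09), against -0.04 (-0.10 to 0.01) in the large columns. The difference between these values was not tested. Of the 39 members that passed the filter in small columns, 29 were below 0 and 10 above, with a median of -0.18, where the median of all 4762 genes was 0.02. Intervals lay below 0 for 3 of the 39 and above 0 for 0, against 2.90% and 3.51% of all genes. In the large columns they did so for 0 and 0 of 43, against 2.95% and 3.94%.

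The 3 members belong to different roles. PSMG4, a core chaperone, had 27 counts in the small ethanol columns and 10 under Nutlin-3, a log2 fold change of -1.25 (-2.51 to -0.21). PSMD7 of the lid had 42 and 22, a value of -0.78 (-1.61 to -0.02), and the ATPase PSMC5 had 59 and 34, a value of -0.65 (-1.31 to -0.03). In the large columns the same genes were at -0.07, -0.04 and -0.12, each with an interval that held 0. By role, the summed values in small columns were -0.36 (-0.62 to -0.10) for the lid, -0.38 (-0.72 to -0.05) for the ATPases and -0.13 (-0.28 to 0.02) for the standard core. Small columns held 151563 human counts under ethanol and 140860 under Nutlin-3, and the median column total was 871 and 830.

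**Figure D4:**
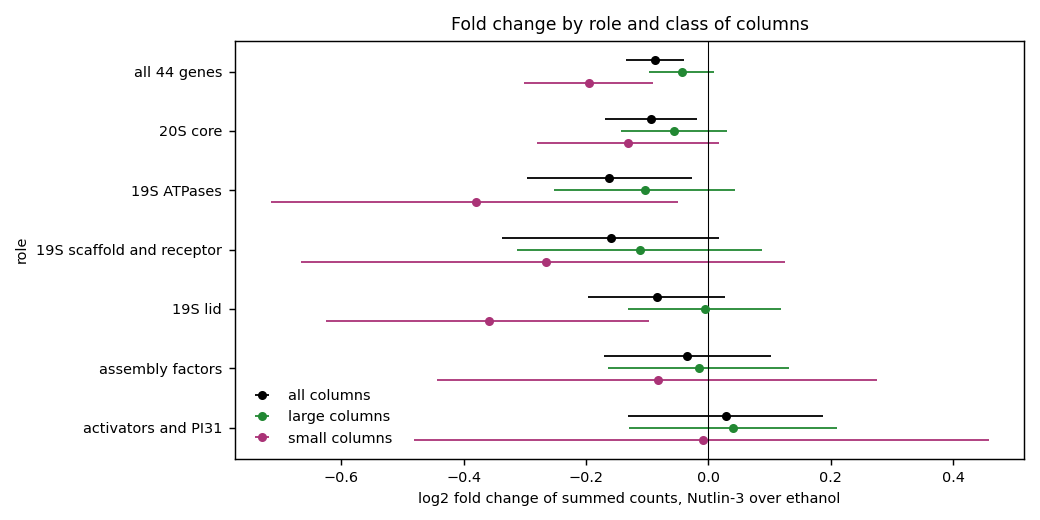
Log2 fold change of the summed counts of each role, Nutlin-3 over ethanol, over all columns, large columns and small columns; bars are 95% counting intervals. Lid and ATPases lie lowest in the small columns, at -0.36 and -0.38. Scaffold and receptor, assembly factors, and activators have bars across 0 in all 3 sets. The assembly factors join core chaperones, at -0.38 (-0.86 to 0.09) in the small columns, and base chaperones, at 0.35 (-0.22 to 0.94).

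Per column, the proteasome genes took a larger share of small columns than of large ones. Under ethanol the median share was 1.07% of human counts in small columns (quartiles 0.934 and 1.27) and 0.487% in large ones (0.462 and 0.522). Under Nutlin-3 the medians were 0.890% (0.722 and 1.07) and 0.473% (0.440 and 0.502). The quartile ranges of the pools overlapped in both classes. After thinning each column to 700 counts, which left out 56 and 63 shallower columns and kept 194 ethanol and 187 Nutlin-3 columns, PSMB4 was seen in 23.7% (exact binomial interval 17.9 to 30.3) and 19.8% (14.3 to 26.2) of columns, and PSMA6 in 2.58% (0.842 to 5.91) and 3.21% (1.19 to 6.85). Without thinning the shares were 80.8% and 76.0% for PSMB4, and 24.8% and 22.0% for PSMA6, at median depths of 2287 and 2010.5 counts. Among the 44 members, the intervals of the pools did not overlap at 700 counts for PSME1 and PSMG4 only. PSME1 was at 1.03% (0.125 to 3.67) under ethanol and 10.7% (6.66 to 16.0) under Nutlin-3. PSMG4 was at 11.3% (7.24 to 16.7) and 2.67% (0.874 to 6.13). The share of all genes with such a gap was not computed, so neither case is read as a difference between treatments. Thinning was a single random draw. At 350 counts PSME1 was seen in 3 columns of each pool and PSMG4 in 8 and 6, and without thinning the shares were 30.8% and 32.0% for PSME1 and 55.2% and 46.4% for PSMG4. No column is known to lack these genes, so a background for free RNA cannot be given.

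Genes that work with the proteasome under other symbols had a sum with an interval across 0, at -0.05 (-0.14 to 0.05) over all columns and 0.01 (-0.23 to 0.25) in the small ones. Of these 13 cap parts, core chaperones and proteasome-bound proteins, 8 were below 0 and 5 above, with a median of -0.04. The interval lay below 0 for 1 of the 13, where it did so for 3.57% of all filtered genes, and 1 gene does not set the list apart. The gene was PAAF1, a chaperone of the cap's base, with 107 counts under ethanol and 75 under Nutlin-3, a log2 fold change of -0.46 (-0.91 to -0.03). POMP, the maturation factor of the core, had 189 and 165 counts, a value of -0.15 (-0.46 to 0.16). The cap subunits SEM1 and ADRM1 had values of -0.04 and -0.02.

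In the arm of NFE2L1, which is cut by DDI2 and edited by NGLY1 before it acts, 9 of 10 genes passed the filter, with 4 below 0 and 5 above, a median of 0.03 and 0 intervals off 0. NFE2L1 itself had 95 counts under ethanol and 100 under Nutlin-3, a log2 fold change of 0.12 (-0.30 to 0.54), and DDI2 had 131 and 124. The 3 NF-Y subunits had a median of -0.02. Among the 14 filtered genes for ubiquitin, its activating enzymes and shuttle factors, 7 were below 0 and 7 above. Intervals lay above 0 for 2 of the 14, where they did so for 4.55% of all filtered genes. RPS27A, a fusion of ubiquitin with a ribosomal protein, was 1 of the 2, with 363 and 436 counts and a value of 0.31 (0.11 to 0.52).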

How the data were processed

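Whole-number counts per gene and column were deposited by the authors in 1 table of 500 columns with 25693 human genes and 62 ERCC species. For aligner, barcode and molecular tag handling, genome build, annotation and cell filter the details were not given in the sources used here. Columns named treated were taken as Nutlin-3, per the labels, and the others as ethanol, with 0 left unassigned. Symbols and gene positions were looked up by identifier in GENCODE release 29 (GRCh38), which need not be the authors' build. Counts were summed per pool and scaled by the TMM method of edgeR 4.0.16 (R 4.3.3). The edgeR filter on low counts had a minimum of 10. Fold changes had 0.5 counts added, and their intervals were derived from exact binomial limits on the share of counts from Nutlin-3 (scipy 1.17.1). These limits treat every count as 1 molecule, which the column names leave in doubt. The calculation was tested on simulated Poisson counts with equal library sizes. That could not test the intervals for counts with less spread than Poisson, as in the large columns. The planned test on 4 libraries could not be made.

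Members, role lists and alternatives were chosen with earlier results of these data known. Every member was counted, and values were given for the highest, lowest and interval-off-0 members of each role and for the other genes of the core and cap. Alternatives were DESeq2 1.42.0 size factors, ERCC or total counts as library size, no filter, 2 counts added, large or small columns alone, removal of the shallowest columns, numbers of columns, thinning to 350 counts, and pseudogene counts added to the gene. Some genes of the marker and pathway lists are not reported here.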

Additional observations from a re-analysis of the deposited data

Results flagged for a closer look

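Rows of proteasome pseudogenes, which the comparisons left out, held 505 counts over both pools, 296 under ethanol and 209 under Nutlin-3, where a count of 0 would allow up to 3. The annotation lists 32 pseudogenes for 12 of the 44 members, and 23 of them had a row. Most of the counts lay beside PSMA6 (105 under ethanol and 75 under Nutlin-3), PSMC1 (68 and 48) and PSMA2 (50 and 41). PSMA6 and PSMC1 were the lowest of the alpha ring and of the ATPases. With the pseudogene counts added, PSMA6 was at -0.32 on the log2 scale, Nutlin-3 over ethanol (-0.67 to 0.02 by counting), against -0.15 for the gene alone. Whether the reads came from the genes or from the pseudogenes was not tested.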

How the results depend on the processing

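Over all columns the sums of all members, core, ATPases and beta ring, the last at -0.11 (-0.21 to -0.01), had intervals off 0. None of them changed sign under any alternative that was run. In large columns each had an interval across 0. These were -0.10 to 0.01 over all members, -0.14 to 0.03 for the core, -0.20 to 0.04 for the beta ring and -0.25 to 0.04 for the ATPases. In small columns the core (-0.28 to 0.02) and the beta ring (-0.30 to 0.08) had intervals across 0 too. Signs did turn for the medians of the alpha ring and assembly factors (large columns), for median and sum of the base chaperones (ERCC), and for those of activators and PI31 (ERCC, small columns, numbers of columns, and for the median also pseudogenes). ERCC counts as library size depend on the unknown mix of spike-in dilutions in each pool. With them 53.8% of all filtered genes had an interval below 0, and 41 members did, where the main count is 1. The medians were then -0.55 over all members, -0.58 for the core, -0.59 for the alpha and -0.56 for the beta ring, -0.62 for the ATPases, -0.62 for scaffold and receptor, -0.54 for the lid, -0.40 for base chaperones, -0.44 for activators and PI31, -0.53 for core chaperones and -0.49 for assembly factors. The sums were -0.56 over all members, -0.56 for the core, -0.63 for the ATPases, -0.55 for the lid and -0.50 for assembly factors. Large columns alone gave medians of -0.018 over all members and 0.012 for the alpha ring, and 0 members with an interval below 0. Small columns alone gave 3 such members, with median and sum at -0.18 and -0.20 over all members, -0.41 and -0.38 for the ATPases and -0.44 and -0.36 for the lid, and a median of 0.39 for the base chaperones. Numbers of columns in place of counts gave 0 such members, and pseudogene counts added to the gene gave 2. In the columns whose name occurs in 1 pool the sum over all members was -0.37. The cause was not tested. Of 426 values of single genes over the alternatives, 53 moved beyond the main value's counting error, 41 of them with ERCC counts and 12 in small columns, and 33 had another sign. No paired analysis was possible because no column name holds the number of a library, and for the same reason leaving out each library and the edgeR and DESeq2 tests were not run. Over all columns the intervals of all filtered members but PSMB2 held 0.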
